A study of Mus musculus with 12 samples.

Results

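The average genotype effect was examined, that is, the log2 difference between HSS9 knockout (KO) and wild-type (WT) macrophages taken as the mean of the KO/WT difference without stimulation and the KO/WT difference with lipopolysaccharide (LPS). All 12 libraries of the series entered the comparison, 6 KO and 6 WT, and 15523 of the 48526 genes in the count table had enough counts to be tested. The cells were bone marrow-derived macrophages (BMDMs), grown from mouse bone marrow for 6 d with L929-conditioned medium. HSS9, also called TNF-9, is an enhancer upstream of Tnf, and the KO mice were homozygous for its deletion. The WT cells are labelled as HSS9+/+ littermate controls, but the study's methods section has C57BL/6 mice bought from a supplier and KO mice kept by crossing homozygotes, so a difference in genetic background or breeding and the deletion cannot be told apart. The methods give male mice of 7 to 10 weeks of age. Cells of each genotype received PBS (UT) or LPS for 6 hr, which makes 4 groups of 3 libraries, named by genotype and treatment. The labels do not say whether the 3 libraries of a group came from separate mice, so p-values measure the spread between these libraries, which may be technical.

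TNF is a cytokine that macrophages make in quantity when LPS, a bacterial cell wall component, is sensed through Toll-like receptor signalling. LPS changes the level of a large share of macrophage genes, so a genotype effect seen in one state can vanish or turn in the other.

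A gene was called where the adjusted p of the average effect was below 0.05 and the absolute log2 fold change above 1. A called gene was termed a stable difference where, in UT and again in LPS, all 3 KO libraries lay on the same side of all 3 WT libraries, and where the 95% interval of the interaction (the LPS difference minus the UT difference) lay within 1 log2 unit of 0. Levels are given as CPM, read counts scaled to a common library total with TMM factors, as mean ± SD over the 3 libraries of a group. Fold changes are log2 values with a standard error (SE). This SE was derived from the test, as the absolute log2 fold change divided by the square root of its F statistic. The 95% intervals were made from it, so both are approximate, above all for genes near 0 counts in a group.

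Tnf, the gene downstream of the deleted enhancer, was lower in KO in both treatments. Tnf had 14.8, 14.98 and 16.2 CPM in WT UT, 9.51, 10.5 and 9.10 CPM in KO UT, 826, 905 and 938 CPM in WT LPS and 422, 449.5 and 425 CPM in KO LPS. The average log2 fold change was -0.85 (SE 0.0474, adjusted p = 3.82e-11), short of the fold threshold. The difference was larger in LPS (-1.04) than in UT (-0.66), and the interaction of -0.38 passed the test (adjusted p = 0.00763) but its 95% interval, -0.58 to -0.19, lay within 1 log2 unit. Tnf was thus not called, but it was stable at any fold, a term for genes that met the conditions of a stable difference other than the fold minimum. Lta, which lies next to Tnf, was called at low counts, with 6, 1 and 1 counts in WT UT and 0 counts in every KO UT library, and 28, 23 and 14 counts in WT LPS against 5, 3 and 5 counts in KO LPS (adjusted p = 0.00529).

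Of the 15523 genes tested, 210 were called (1.35%), 113 higher in KO (0.728%) and 97 lower in KO (0.625%). Among the 210, 14 met the definition of a stable difference, 6 higher and 8 lower in KO. The 6 higher genes were Cd59a, Apoe, C1qa, Tmem176b, Fcrls and Btbd11, and the 8 lower genes were Mid1, Slc15a2, Gdf3, Gm14548, Lrmda, Plcxd2, Rnf17 and Ccnb2. All 14 are annotated as protein coding, compared with 154 of the 210 called genes. The definition needs a narrow interval and so favours well-counted genes, and 0 of the 14 had a mean below 1 CPM. The shares of protein-coding genes were thus not compared at like levels. Of the called genes 112 had all KO libraries beyond all WT libraries on the same side in both treatments, a pattern seen in 9.00% of all genes tested. For 98 of these 112 the interval of the interaction reached beyond 1 log2 unit. By level, 139 of the 210 called genes had a mean of less than 1 CPM, 46 had 1 to 5 CPM and 25 had at least 5 CPM. Of the 25, 22 had KO beyond WT on the same side in both treatments, 9 were stable and 13 had an interaction that passed the test. With a minimum mean of 1 CPM, 73 genes were called and 71 of them were among the 210, whereas with the share of small structured RNAs as a covariate 200 were called and 121 were among the 210.

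**Figure D1:**
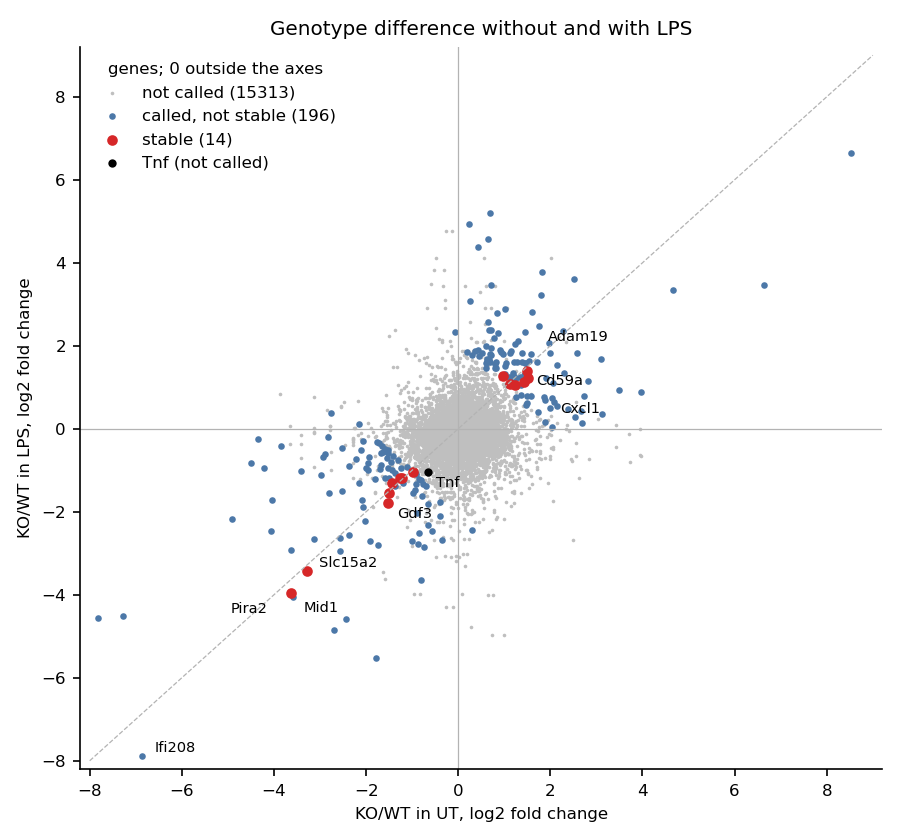
KO/WT log2 fold change in LPS (y axis) against that in UT (x axis) for all 15523 genes tested. By definition the 14 stable differences lie close to the dashed line of equal change, 6 above 0 and 8 below 0 on both axes. The other called genes scatter more widely. Of all 210 called genes 139 had a mean below 1 CPM, and 26 had an interaction that passed the test.

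At any fold the adjusted p was below 0.05 for 3809 genes (24.5%), 2201 higher (14.2%) and 1608 lower in KO (10.4%). This split rests on the scaling: 1730 were higher and 2145 lower with RLE factors, 1889 and 2040 with upper-quartile factors, and 1755 and 2224 with DESeq2. Small changes prevailed, as 3160 of the 3809 were below 0.5 log2 units. Of the 3809, 1157 met the other conditions of a stable difference (7.45% of the genes tested), 629 higher and 528 lower, and 167 of them exceeded 0.5 log2 units, 74 higher and 93 lower. The interaction passed the test in 2611 genes (16.8%), among them 26 of the 210 called genes and 3 of the 14 stable ones (Apoe, C1qa and Fcrls). With the share of small structured RNAs as a covariate 194 interactions passed the test. That share was highest in KO UT and lowest in WT UT and KO LPS. It was higher in KO than in WT in UT and lower in LPS, so it overlaps with the interaction. The fit with the covariate cannot tell them apart, and the fall in number is not read as a dependence on small RNAs. Of 44 protein-coding genes tested that start within 500 kb of Tnf, 6 were higher and 9 lower at adjusted p below 0.05, and 1 was called, with 2 higher and 10 lower under the same covariate.

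Of the 6 stable increases, Tmem176b and Fcrls belong to the list of tissue macrophage identity, and C1qa and Cd59a act in or on complement. In bulk RNA, a change in the number of cells of a type and a change in RNA per cell cannot be told apart. Apoe, which encodes the lipid carrier apolipoprotein E, had 1399.7, 1342 and 1415 CPM in WT UT and 4403, 3784 and 3778 CPM in KO UT. In LPS it had 1080.5, 1307 and 1236 CPM in WT and 2851, 3039 and 2606 CPM in KO. Every KO library of Apoe lay above every WT library, also across treatments. The average log2 fold change was 1.38 (SE 0.0501, adjusted p = 5.36e-14), with 1.53 in UT and 1.23 in LPS. The small difference between treatments itself passed the test (interaction -0.30, 95% interval -0.50 to -0.09, adjusted p = 0.0437).

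C1qa, a subunit of the complement component C1q, followed the same order of groups. It had 207 ± 4.92 CPM in WT UT and 558 ± 22.8 CPM in KO UT, and 162 ± 19.2 CPM in WT LPS and 353 ± 27.3 CPM in KO LPS. Its average log2 fold change was 1.28 (SE 0.0521, adjusted p = 1.93e-13). The 2 other C1q subunits, whose genes neighbour C1qa on chromosome 4, rose by less than the fold threshold, C1qc by 0.88 (SE 0.0440, adjusted p = 6.56e-12) and C1qb by 0.73 (SE 0.0400, adjusted p = 3.18e-11). Both were higher in all 3 KO libraries in each treatment. C1qb had 389.9, 385 and 382 CPM in the WT UT libraries, all below the lowest KO UT library at 569.6 CPM.

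Tmem176b, a membrane protein of myeloid cells, had 36.8 ± 1.69 CPM in WT UT, 86.9 ± 1.32 CPM in KO UT, 57.8 ± 3.88 CPM in WT LPS and 120.4 ± 9.26 CPM in KO LPS. Its level was higher in LPS than in UT in both genotypes, the reverse of Apoe and C1qa, yet the genotype difference was 1.24 in UT and 1.06 in LPS (average 1.15, SE 0.0458, adjusted p = 1.74e-13). Tmem176a, its neighbour on the opposite strand, rose by 0.94 (SE 0.0644, adjusted p = 1.23e-09). The annotated genes overlap, and whether the counting used strand is unknown, so reads of the pair may have been exchanged.

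Fcrls, an Fc receptor-like scavenger receptor known as a marker of microglia, had 58.3, 52.0 and 59.7 CPM in WT UT and 113, 108 and 111 CPM in KO UT. After LPS it had 24.2, 25.5 and 25.2 CPM in WT and 59.8, 58.9 and 60.6 CPM in KO. Its average log2 fold change was 1.11 (SE 0.0423, adjusted p = 9.93e-14). Unlike Apoe and C1qa it had the larger difference in LPS, 1.26 against 0.97 in UT, and this interaction also passed the test (0.30, adjusted p = 0.0189).

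Cd59a, an inhibitor of the complement membrane attack complex on the cell's own surface, showed the largest stable increase. It had 4.87, 4.24 and 3.89 CPM in WT UT, 11.3, 13.7 and 11.7 CPM in KO UT, 1.98, 2.11 and 1.65 CPM in WT LPS and 4.98, 5.52 and 4.68 CPM in KO LPS. The level was lower in LPS than in UT in both genotypes, at a like ratio of KO to WT (log2 1.501 in UT, 1.40 in LPS, average 1.45, SE 0.102, adjusted p = 1.70e-09). Btbd11, at a mean of 3.81 CPM and named after its values were seen, rose by 1.10 (SE 0.123, adjusted p = 1.59e-06), with 1.12 in UT and 1.09 in LPS.

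Among the stable decreases, Mid1 changed most. Mid1 encodes a microtubule-associated ubiquitin ligase on the X chromosome. It had 9.01, 8.34 and 8.46 CPM in WT UT and 1.13, 0.529 and 0.455 CPM in KO UT, and 52.2, 49.4 and 52.8 CPM in WT LPS and 3.26, 3.83 and 2.85 CPM in KO LPS. Mid1 was higher in LPS than in UT in both genotypes, and the KO level after LPS was still below the WT level without it. The average log2 fold change was -3.79 (SE 0.108, adjusted p = 8.56e-16), with -3.62 in UT and -3.96 in LPS.

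Slc15a2, a transporter of oligopeptides and muramyl peptides, had 8.15 ± 0.568 CPM in WT UT, 0.827 ± 0.166 CPM in KO UT, 3.91 ± 0.348 CPM in WT LPS and 0.363 ± 0.0607 CPM in KO LPS. The log2 fold change was -3.29 in UT and -3.42 in LPS (average -3.36, SE 0.144, adjusted p = 4.82e-13). In the fixed list of oligopeptide transport and NOD sensing, 7 of 9 genes were tested, of which 1 rose and 4 fell. Of all genes tested 14.2% rose and 10.4% fell. Besides Slc15a2, the fallen genes were Nod1 (-0.40), Nod2 (-0.33) and Ripk2 (-0.18), which act in the sensing of bacterial peptidoglycan, and the risen gene was Slc46a3 (0.42).

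Gdf3, a ligand of the TGF-beta superfamily, had 11.6, 12.05 and 11.2 CPM in WT UT, 4.40, 3.94 and 3.87 CPM in KO UT, 7.45, 7.81 and 7.31 CPM in WT LPS and 1.92, 2.37 and 2.23 CPM in KO LPS. All KO libraries were below all WT libraries, and the average log2 fold change was -1.65 (SE 0.0861, adjusted p = 1.18e-11). Of the TGF-beta superfamily list, 18 of 20 genes were tested, 2 rose, 4 fell and 12 did not pass the test, with a median of -0.01. Over all genes tested 14.2% rose and 10.4% fell. Gdf3 apart, the receptor Tgfbr2 rose by 0.32 and the co-receptor Eng was lower by 0.30 (log2 fold change -0.30), both stable at any fold.

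Lrmda, a gene known for its part in melanocyte differentiation, had 8.59 ± 1.09 CPM in WT UT and 3.19 ± 0.539 CPM in KO UT, and 12.6 ± 1.34 CPM in WT LPS and 5.04 ± 1.30 CPM in KO LPS (average -1.37, SE 0.116, adjusted p = 3.04e-08). The remaining 3 stable decreases were at low levels, and Plcxd2 and Rnf17 were named after their values were seen. Plcxd2 fell by 1.22 (log2 fold change -1.22, SE 0.135, adjusted p = 1.44e-06), Rnf17 by 1.202 (-1.202, SE 0.234, adjusted p = 0.000747) and Ccnb2, the mitotic cyclin B2, by 1.01 (-1.01, SE 0.138, adjusted p = 2.01e-05). Rnf17 lost its stable status in 18 of 24 alternatives and Ccnb2 in 9 of 24, and Ccnb2 was not called at all in 8. Mid1 kept it in 20 of 24 and Slc15a2 in 22. Mid1 lost it with the small RNA covariate and without KO LPS replicate 2, KO UT replicate 2 or KO UT replicate 3. Apoe, C1qa, Tmem176b and Fcrls kept stable status in all 24, and the remaining stable genes lost it only with the small RNA covariate.

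**Figure D2:**
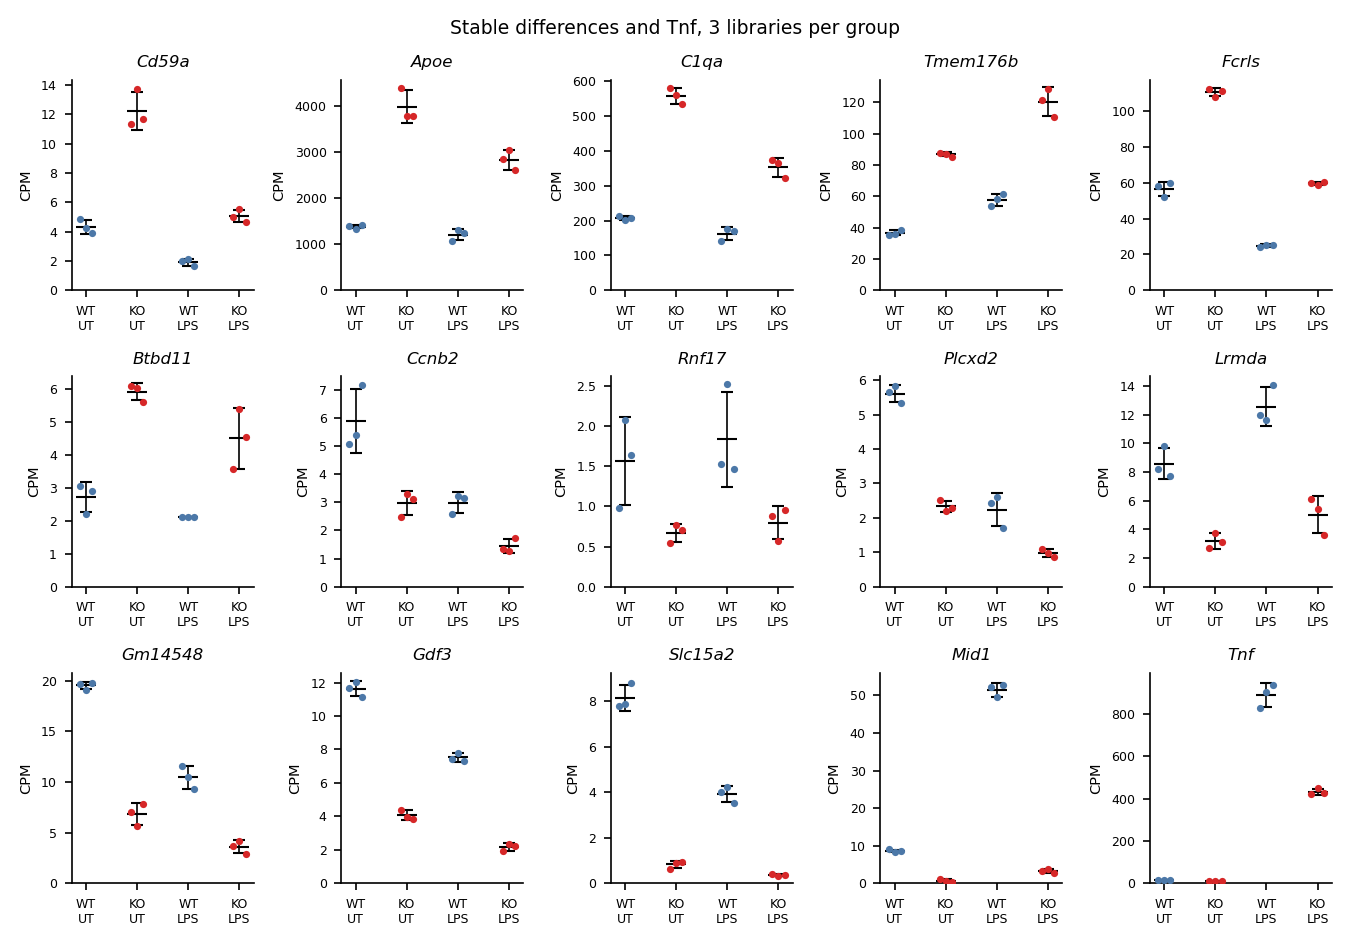
CPM of the 14 stable differences and of Tnf in every library, by group (WT blue, KO red), with the mean and SD over 3 libraries, each panel starting at 0. The KO points lie beyond the WT points on the same side in UT and in LPS in each of the 15 panels, while the levels themselves move with LPS in either direction.

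In the list of tissue macrophage identity, 24 of 25 genes were tested, of which 15 rose, 3 fell and 6 did not pass the test, and the median of 0.35 stood beside 0.01 for all genes tested. Stable at any fold were 11 of the 24, against 7.45% of all genes tested, and 10 of them were higher, among them Tmem176b, Fcrls, Cbr2 (0.95), Tmem176a, Mrc1 (0.79), Folr2 (0.67), Selenop (0.59), Gas6 (0.50) and Stab1 (0.25). Mrc1, the mannose receptor, had 112 ± 1.04 CPM in WT UT, 187 ± 7.15 CPM in KO UT, 42.7 ± 1.54 CPM in WT LPS and 76.9 ± 3.73 CPM in KO LPS. The member that was lower was Axl, a receptor for Gas6 (log2 fold change -0.52). The list was chosen with earlier results of these data known, so its count is a description.

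For the lists in this paragraph the shares of all genes tested were 14.2% risen and 10.4% fallen. Of the complement list, 14 of 15 genes were tested, 6 rose, 2 fell and 6 did not pass the test (median 0.21). The risen genes were the 3 C1q subunits, the receptors C5ar1 (0.30) and C3ar1 (0.22), and Cfp (0.19), and C3 (-0.23) was among those that fell. Of the genes for LXR targets and lipid export, 17 of 19 were tested, 7 rose, 1 fell and 9 did not pass the test (median 0.08). Besides Apoe, the lipid transporter Abca9 rose by 0.88 and Scd2, which desaturates fatty acids, by 0.42, whereas Abca1 rose by only 0.11 and Abcg1 was at -0.06 without passing the test. For cholesterol synthesis 24 of 25 genes were tested, 10 rose and 3 fell around a median of 0.02, which turned to -0.02 with RLE factors, where 3 rose and 3 fell. Of the 8 Fc receptor genes tested, 5 rose, including Fcgr3 (0.43) and Fcrl1 (0.48), and 0 fell (median 0.21), beside the same shares of all genes.

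The matrix and contractile genes that were called higher in KO had low levels. Of 22 genes of this list tested, 14 rose, 3 fell and 5 did not pass the test, and 5 were called higher and 1 lower (median 0.34), beside 14.2%, 10.4%, 0.728% and 0.625% of all genes tested. With the small RNA covariate 13 rose and 1 fell (median 0.61). The 5 were Acta2 (1.38), Tagln (1.41) and Myl9 (1.88), which encode contractile proteins, and Ccn1 (1.25) and Sparc (1.14), which are secreted to the matrix. Acta2 had 3.32 ± 0.269 CPM in WT UT, 6.48 ± 0.925 CPM in KO UT, 2.99 ± 0.312 CPM in WT LPS and 10.4 ± 0.741 CPM in KO LPS. None of the 5 was a stable difference, as the interval of the interaction reached beyond 1 log2 unit in each, and the interaction of Acta2 passed the test (0.84, adjusted p = 0.00511). The gene called lower was Vcan (-1.04), whose call was lost in the additive model (-0.98) and with the small RNA covariate (-0.96). Of the fibroblast or stromal markers, 7 of 9 were tested, 3 rose and 0 fell (5 rose with that covariate), and their summed level was 6.53 to 7.15 CPM in WT UT, 7.20 to 8.36 in KO UT, 22.9 to 26.1 in WT LPS and 29.9 to 32.9 in KO LPS. Their part in the matrix genes was not tested. Adam19, a membrane metalloproteinase, had the largest increase among called genes of at least 5 CPM in which KO and WT libraries did not overlap. It had 3.06 ± 0.402 CPM in WT UT, 10.4 ± 0.454 CPM in KO UT, 2.87 ± 0.282 CPM in WT LPS and 16.1 ± 0.589 CPM in KO LPS (average 2.12, SE 0.0847, adjusted p = 1.74e-13), with a larger difference in LPS (interaction 0.72, adjusted p = 0.00604). Of 20 metalloproteinases and inhibitors tested, 9 rose and 2 fell (median 0.16).

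The decreases at any fold held interferon-stimulated, cytokine and cell cycle genes. Of 37 interferon-stimulated genes, 36 were tested, 30 fell, 0 rose and 6 did not pass the test, with a median of -0.36. Of all genes tested 10.4% fell, 14.2% rose, 16.8% had an interaction that passed and 7.45% were stable at any fold. The average of these interferon-stimulated genes was not evenly made up: the median was -0.65 in UT and -0.06 in LPS. Their interaction passed the test in 33 of the 36 without the small RNA covariate, and 9 were stable at any fold. Isg15, an interferon-induced ubiquitin-like protein, was among the 9, with 36.3, 37.6 and 38.8 CPM in WT UT, 20.3, 20.1 and 19.6 CPM in KO UT, 1112, 1214 and 1225 CPM in WT LPS and 875, 857 and 804 CPM in KO LPS. Its difference was still larger in UT (-0.91) than in LPS (-0.49). Irf7, a factor that drives interferon genes, showed -1.21 in UT and -0.06 in LPS.

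Of 24 LPS-induced cytokine and chemokine genes tested, 1 rose, 8 fell and 15 did not pass the test (median -0.24). For this list and the next, 14.2% of all genes tested rose and 10.4% fell. The cytokine or chemokine gene that rose was Cxcl1, a neutrophil attractant, and the stable ones at any fold were Tnf, Cxcl10 (-0.38) and Ccl22 (-0.60). Of 23 genes of TNF receptor and NF-kappaB signalling, 1 rose, 8 fell and 14 did not pass the test (median -0.09), and the number that fell ran from 5 with the small RNA covariate to 12 with DESeq2. The stable decreases at any fold were Traf1 (-0.31), Tnfaip2 (-0.24) and Tnip1 (-0.21). MHC class II genes had 1 increase and 2 decreases in 11 tested (median -0.05), near the 24.5% of all genes that passed, and Ciita, their transactivator, was stable at any fold (-0.41).

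For the cell cycle, 24 genes were tested, 2 rose, 9 fell and 13 did not pass the test (median -0.25), beside 14.2% risen and 10.4% fallen of all genes. With the small RNA share as a covariate 2 rose and 5 fell, beside 2067 risen and 1123 fallen of all 15523 genes. The fallen genes of the list act in cell division, among them Mki67 (-0.69), Ccna2 (-0.51), Bub1 (-0.81), Plk1 (-0.81) and Ccnb2, while Pcna (0.35) and Mcm6 (0.16), of DNA replication, rose. Mki67, a marker of dividing cells, had 34.7, 37.7 and 37.7 CPM in WT UT and 17.8, 17.9 and 20.7 CPM in KO UT, and 72.6, 69.3 and 64.1 CPM in WT LPS and 48.5, 50.9 and 54.7 CPM in KO LPS. Of this list only Ccnb2 was called.

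**Figure D3:**
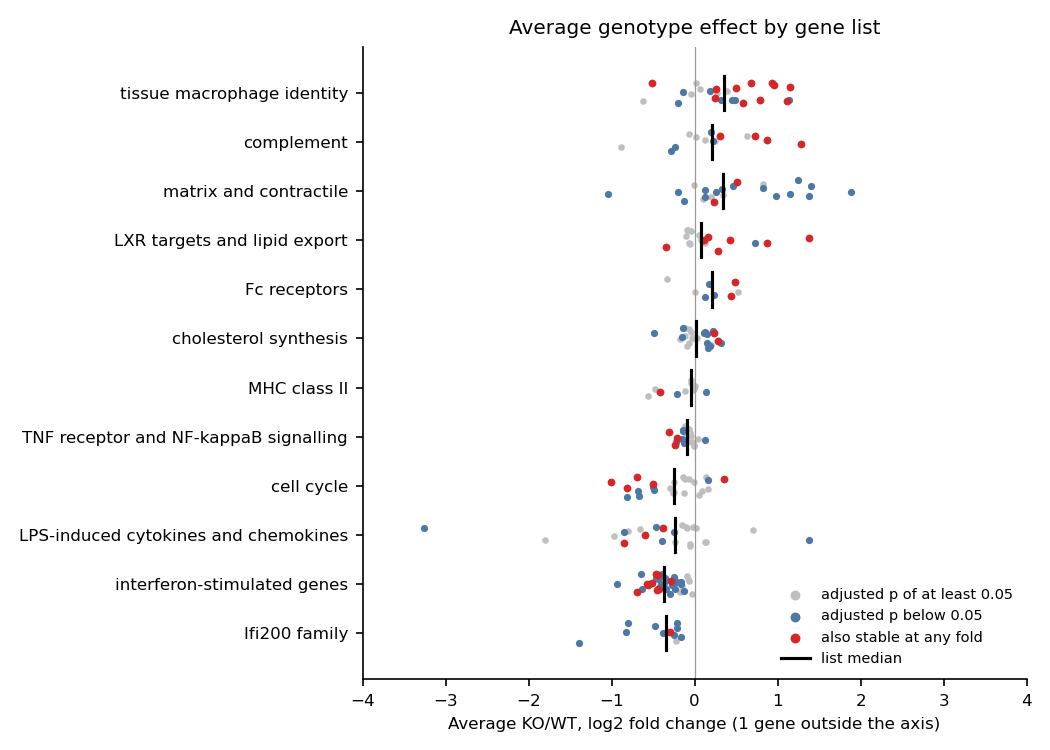
Average KO/WT log2 fold change of each tested member of 12 gene lists (points) with the list median (black bar). Among the lists drawn, medians range from 0.35 for tissue macrophage identity to -0.36 for interferon-stimulated genes, and the point outside the axis is Ifi208 at -7.37.

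Several of the largest decreases lay beside each other on the chromosome. Ifi208 and Pira2 were called with non-overlapping libraries, but the interval of their interaction reached beyond 1 log2 unit. Ifi208, of the interferon-inducible Ifi200 family on chromosome 1, had 207, 212 and 223 counts in WT UT and 2, 2 and 0 counts in KO UT, and 2873, 2172 and 1894 counts in WT LPS and 15, 11 and 7 counts in KO LPS. Its fitted log2 fold change of -7.37 (SE 0.145, adjusted p = 9.49e-19) depends on a small added count in UT, where KO libraries were at or under 3 counts. The derived SE is therefore not a measure of how precise this value is, and that of its interaction was 0.966. Of 14 Ifi200 genes 12 were tested, 11 fell and 0 rose, 2 were called lower (Ifi208 and Ifi214) and 1, Aim2 (-0.30), was stable at any fold. Of all genes tested 10.4% fell and 0.625% were called lower. The median over all 12, Ifi208 included, was -0.71 in UT and 0.01 in LPS. Besides Ifi208, Ifi214 was lower by 0.82 (log2 fold change -0.82) in LPS, with an adjusted p of 2.83e-05, and Ifi213 was at -0.27 in LPS (adjusted p = 0.00241). Of 18 genes tested that start within 500 kb of Ifi208, 13 were lower and 0 higher at adjusted p below 0.05, against 7 lower and 6 higher of 29 around Pira2, and most of the 13 were the same Ifi200 genes.

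Pira2, a paired immunoglobulin-like receptor on chromosome 7, had 23.1 ± 0.306 CPM in WT UT, 1.95 ± 0.593 CPM in KO UT, 13.9 ± 1.16 CPM in WT LPS and 0.837 ± 0.269 CPM in KO LPS (average -3.81, SE 0.122, adjusted p = 5.40e-15). The interval of its interaction, -1.05 to 0.11, exceeded the limit slightly. Gm14548, a stable decrease of the same family, starts 53.1 kb from Pira2. It had 19.5 ± 0.368 CPM in WT UT, 6.83 ± 1.11 CPM in KO UT, 10.4 ± 1.11 CPM in WT LPS and 3.60 ± 0.628 CPM in KO LPS, with equal changes in UT (-1.51) and LPS (-1.54). Of 18 listed paired immunoglobulin-like and Lilr receptors 7 were tested, 4 fell, 1 rose and 2 did not pass the test, among them Pirb at 0.03. Of all genes tested 10.4% fell and 14.2% rose. Members of this receptor family are known for close sequence similarity, and how reads shared between copies were counted is unknown, so counts of each are uncertain. In addition, 10 of the 18 symbols could not be matched to the table.

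The sequences before Pira2 and Gm14548 are shown for how close the copies are, and those before Apoe, Cd59a and Ifi208 because each holds an ISRE core. Lrmda, with a MAF half-site, and C1qc, with a PU.1 match, are not shown. Each run gives the 250 bases upstream of a RefSeq start, from the GRCm38.p6 table, 5′ to 3′ on the strand of the gene. Capitals mark matches on either strand to PU.1 (GAGGAAGT), AP-1 (TGANTCA), a MAF half-site (TGCTGAC) or an ISRE core (GAAANNGAA), all factors or elements of macrophage genes. The Apoe window is chr7:19699189-19699438 (minus strand), that of Cd59a chr2:104095551-104095800 (plus), that of Ifi208 chr1:173673415-173673664 (plus), that of Pira2 chr7:3845052-3845301 (minus) and that of Gm14548 chr7:3898142-3898391 (minus).
Apoe: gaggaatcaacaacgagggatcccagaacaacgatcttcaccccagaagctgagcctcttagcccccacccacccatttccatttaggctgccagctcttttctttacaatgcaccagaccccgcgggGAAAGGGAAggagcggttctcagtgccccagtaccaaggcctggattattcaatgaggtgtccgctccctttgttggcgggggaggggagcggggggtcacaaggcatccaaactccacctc
Cd59a: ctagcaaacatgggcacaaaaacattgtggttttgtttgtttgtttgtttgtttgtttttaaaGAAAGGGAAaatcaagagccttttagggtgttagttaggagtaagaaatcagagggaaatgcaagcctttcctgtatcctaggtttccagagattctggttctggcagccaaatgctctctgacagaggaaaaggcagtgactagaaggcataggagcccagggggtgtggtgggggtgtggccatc
Ifi208: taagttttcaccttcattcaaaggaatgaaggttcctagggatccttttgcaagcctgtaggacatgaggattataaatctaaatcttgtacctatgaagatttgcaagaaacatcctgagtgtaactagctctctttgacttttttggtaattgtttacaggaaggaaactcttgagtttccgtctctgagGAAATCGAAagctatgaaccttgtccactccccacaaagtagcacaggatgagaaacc
Pira2: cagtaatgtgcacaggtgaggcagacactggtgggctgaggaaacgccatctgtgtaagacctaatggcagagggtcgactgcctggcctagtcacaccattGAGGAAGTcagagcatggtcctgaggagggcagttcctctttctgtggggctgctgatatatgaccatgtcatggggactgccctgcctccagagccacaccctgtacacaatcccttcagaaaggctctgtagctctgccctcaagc
Gm14548: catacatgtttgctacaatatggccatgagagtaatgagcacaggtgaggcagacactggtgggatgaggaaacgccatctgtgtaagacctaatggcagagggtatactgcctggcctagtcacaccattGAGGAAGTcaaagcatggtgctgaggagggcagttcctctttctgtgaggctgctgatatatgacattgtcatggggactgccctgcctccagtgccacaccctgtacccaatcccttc
The Pira2 and Gm14548 windows were identical at 209 of 221 aligned bases (94.6%), without gaps and at an offset of 29 bases, and both held the PU.1 letters. Of the 14 stable genes 11 had a window, of which 2 held an ISRE core (Apoe and Cd59a, with the same letters GAAAGGGAA), 1 a PU.1 match (Gm14548), 1 a MAF half-site (Lrmda) and 0 an AP-1 match. Among 10233 windows of tested genes, 6.48% held an ISRE core, 2.83% PU.1, 2.99% a MAF half-site and 4.46% AP-1. In all 32851 windows of the table the shares were 7.13%, 2.44%, 3.81% and 6.75%. An ISRE core was present in 13 of 26 windows of interferon-stimulated genes, in 8 of 11 of the Ifi200 family and in 6 of 19 of the tissue macrophage list, in 7.74% of the 478 windows of genes stably higher at any fold and in 7.27% of the 385 of genes stably lower. A match describes the letters and not binding.

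Mid1 was the third of these places. G530011O06Rik, which lies within Mid1 on the opposite strand and was named after its values were seen like the genes beside it, fell by 2.89 (log2 fold change -2.89, SE 0.189, adjusted p = 6.07e-10), and Gm15726, also opposite Mid1, and Gm21887 were called lower at low counts. Without the strand setting, reads of Mid1 and of the genes opposite it cannot be told apart. Gm15726 had 19 to 31 counts in WT UT and 0 in KO UT, and 77 to 120 counts in WT LPS and 2 to 7 counts in KO LPS. This end of the X chromosome is shared with the Y chromosome, where Gm47283 and Gm21860 were also called lower, so reads of these genes may have been exchanged. Over the genome, 39 of the 210 called genes (18.6%) started within 500 kb of another called gene, against 13.9% of the 15462 tested genes with a position that started so near to a called gene.

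**Figure D4:**
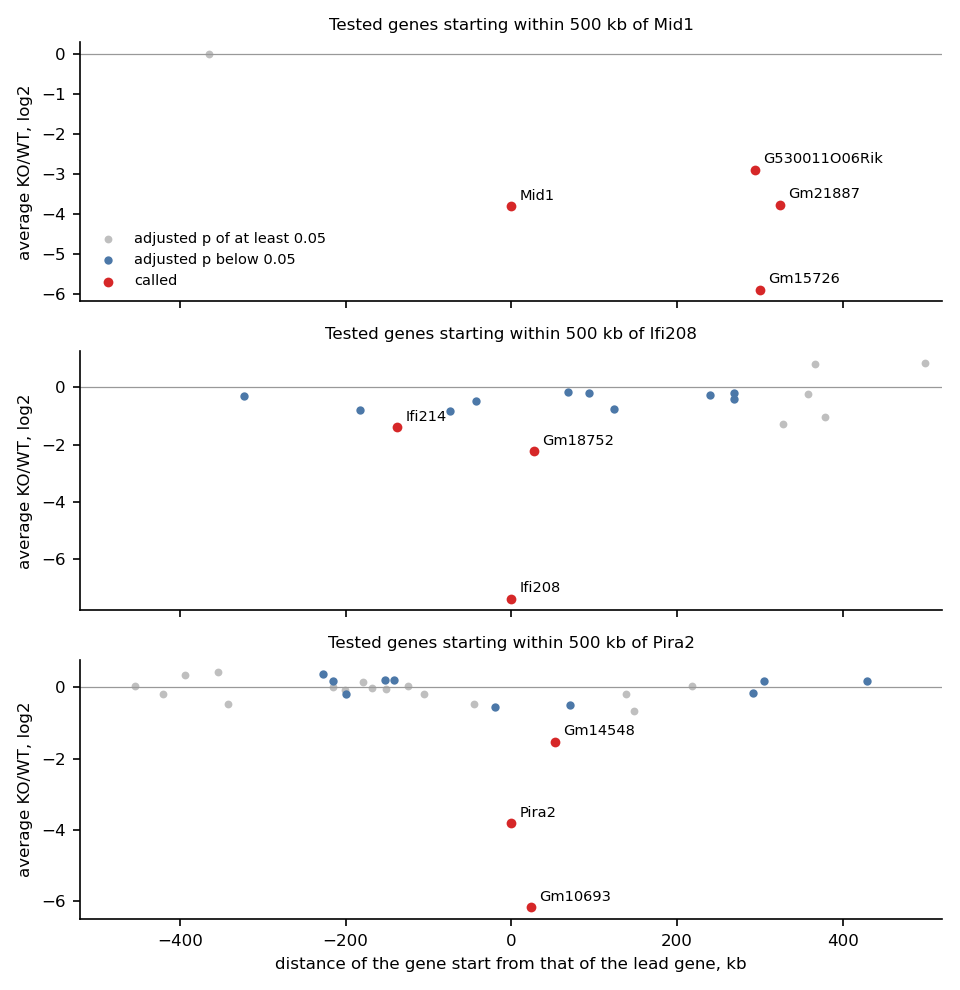
Average KO/WT log2 fold change of tested genes against the distance of their start from that of Mid1, Ifi208 or Pira2, in kb. Called genes (red), the lead gene included, are 4 at Mid1, 3 at Ifi208 and 3 at Pira2, all lower in KO.

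Called genes that did depend on stimulation set off the stable ones. By the size of the interaction, among called genes of at least 5 CPM whose interaction passed the test, Vcan (versican, -1.77 in UT and -0.31 in LPS), Tnfsf8 (the CD30 ligand, -1.65 and -0.41) and Ifi214 (-1.96 and -0.82) had the largest loss of difference after LPS among the decreases. Scimp (1.88 in UT and 0.16 in LPS) and Cxcl1 (2.03 and 0.73) lost most among the increases, and Dio2, which activates thyroid hormone, had the larger decrease in LPS (-0.78 and -1.62). Cxcl1 had 1.46 ± 0.0943 CPM in WT UT, 5.97 ± 0.382 CPM in KO UT, 239.7 ± 9.41 CPM in WT LPS and 399 ± 14.1 CPM in KO LPS. Each of these genes had KO beyond WT on 1 side in both treatments except Scimp, whose LPS libraries overlapped. Of the 26 called genes with an interaction, 16 had the larger difference in UT and 10 in LPS. Among genes of at least 5 CPM that passed the test, the called genes nearest the fold threshold were Scimp (1.02), which lost its call under 10 alternatives and was at 0.34 in the additive model, and Tnfsf8 (-1.03), which lost it under 5, and those nearest it from outside were S100a9 (0.98) and Slfn4 (-0.96).

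**Figure D5:**
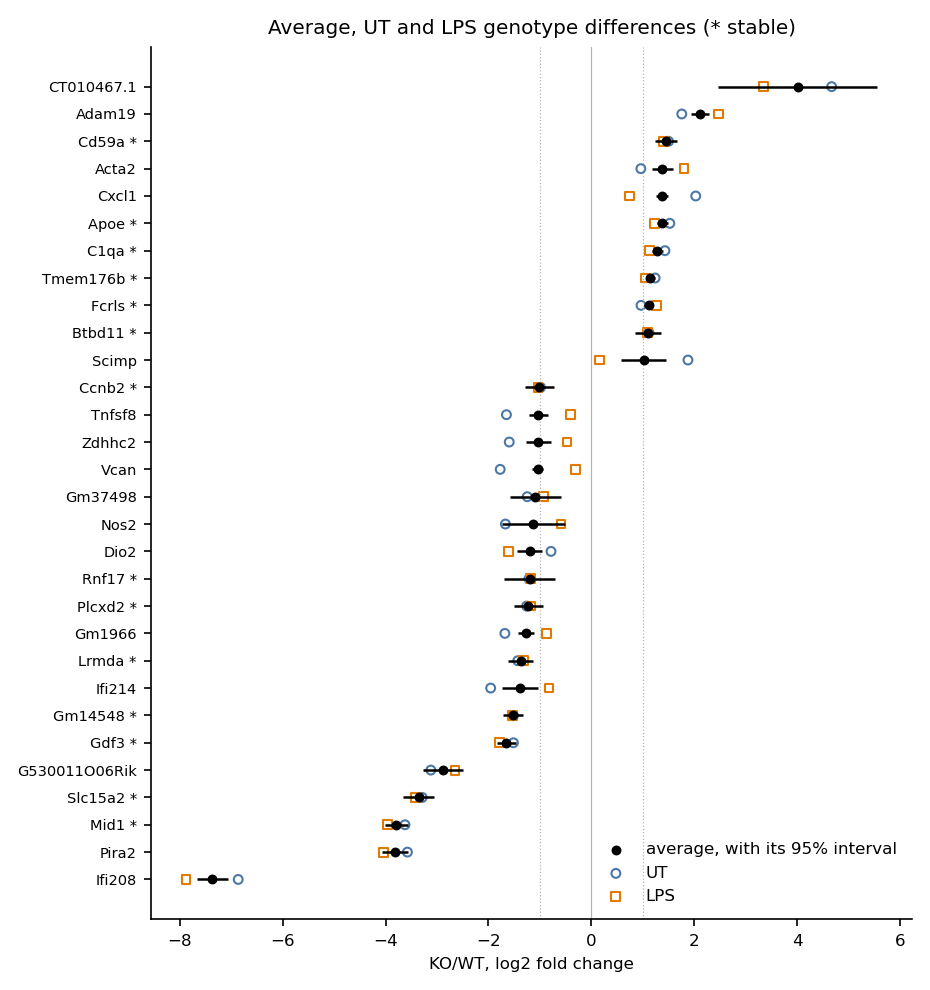
Average KO/WT log2 fold change with its 95% interval (black), and the UT (circle) and LPS (square) values, for the 25 called genes of at least 5 CPM and the 5 stable differences below it. By definition circle and square lie near each other for the stable genes (asterisks), and they lie apart for genes such as Vcan, Tnfsf8 and Scimp.

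CT010467.1, an rRNA gene, and Nos2, which makes nitric oxide, were named after their values were seen. CT010467.1 had 1267 CPM in 1 KO UT library and 879 CPM in 1 KO LPS library against 28.2 to 112 CPM in the other KO libraries, and its log2 fold change of 4.01 (SE 0.744, adjusted p = 0.000494) was 2.81 without KO UT replicate 1 and 2.41 without KO LPS replicate 2, still called in both. Nos2 was measured at 1261 to 1460 CPM in WT LPS and 865 to 912 CPM in KO LPS but at 0 to 0.257 CPM in UT, and its average of -1.13 had an adjusted p of 0.0689 without WT UT replicate 1. Of the called genes, Gm42031, a lincRNA on chromosome 8 named after its values were seen, had the largest increase, with 0 to 2 counts in the WT libraries, 232 to 277 in KO UT and 77 to 96 in KO LPS.

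The libraries held 26154533 to 36423921 counts. Macrophage markers were present throughout, with 8 of 10 risen, 0 fallen and a summed level of 28281 to 30235 CPM in WT and 30612 to 34696 CPM in KO libraries. Of all genes tested 14.2% rose and 10.4% fell. Of 10 neutrophil markers 7 were tested, 3 rose, 0 fell and 4 did not pass the test, with a median of 1.21 in UT and 0.09 in LPS. The risen genes were S100a8 (0.64), S100a9 and Camp (1.05), and Ly6g was at 0 in every library. Neutrophil markers summed to 20.6 to 22.2 CPM in WT UT and 43.3 to 49.3 in KO UT. In LPS they summed to 50.5 to 79.7 in WT and 67.3 to 76.8 in KO, where the genotypes overlapped. Of 6 B cell markers 2 were tested, Ighm (0.71) rose and 1 did not pass the test. B cell markers summed to 19.2 to 21.8 CPM in WT UT, 38.2 to 40.2 in KO UT, 0.932 to 1.60 in WT LPS and 1.68 to 1.88 in KO LPS. Of 7 monocyte markers 2 rose and 1, Vcan, fell. Of T or NK cell markers only Cd4 was tested (0.79, risen, but not with the small RNA covariate), of dendritic cell markers 5 were tested and 0 passed, of mast cell or basophil markers Kit was tested and did not pass, and no erythroid marker had enough counts to be tested, with the 4 globin genes at 0 counts in every library. The part of these cells in the results was not tested. Small structured RNAs took 4.34% to 4.53% of counts in WT UT, 8.07% to 9.17% in KO UT, 5.004% to 7.74% in WT LPS and 4.35% to 4.45% in KO LPS, and of 13 listed ones 3 rose on average and 9 showed an interaction. Their share as a covariate left Apoe, C1qa, Tmem176b and Fcrls stable, while the other 10 stable genes lost that status and all 14 were still called. As the share itself differs between the groups like an interaction, this fit cannot show whether stable status depends on small RNAs. Among 60 clustered histone genes, 20 rose and 4 fell (median 0.22), and 37 showed an interaction, as did 16.8% of all genes tested. With the small RNA share as a covariate 7 rose and 7 fell (median -0.09). Of the Y-linked genes in a list of sex-linked genes 4 were tested and 1 fell (Eif2s3y, -0.12), 0 with the replicate block or the small RNA covariate. Xist had at most 4 counts. Over the whole Y chromosome 11 genes were tested and 2, Gm47283 and Gm21860, were called lower. Of genes that differ between C57BL/6 substrains, Nnt, a mitochondrial transhydrogenase, had 25.8 ± 1.45 CPM in WT UT, 51.2 ± 1.95 CPM in KO UT, 17.0 ± 0.835 CPM in WT LPS and 30.4 ± 0.422 CPM in KO LPS, stable at any fold but not called, with a log2 fold change of 0.91 (SE 0.0472, adjusted p = 1.02e-11), Wdfy1 rose by 0.59 and Cyfip2 fell by 0.28 (log2 fold change -0.28, adjusted p = 0.000852), a decrease that did not pass the test with the small RNA covariate. A difference in substrain and the deletion of HSS9 cannot be told apart in this design.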

How the data were processed

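Total RNA of 12 BMDM libraries was sequenced in paired ends after a stranded, ribosome- and globin-depleting preparation. Per the labels and methods, the authors aligned the reads to GRCm38/mm10 with HISAT2 2.1.0, used SAMtools 1.17 and FastQC 0.11.9, and counted reads per gene with featureCounts 2.0.0. The deposited values are raw counts per gene, not normalized. Which annotation was counted, whether strand was used and how reads with several positions were handled are not given in the sources used here. Gene names were taken from GENCODE M21, in which 48144 of 48526 identifiers matched.

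Counts were tested in R 4.3.3 with edgeR 4.0.16 (TMM scaling, glmQLFit and glmQLFTest, Benjamini-Hochberg adjustment, two-sided) on 15523 genes that passed filterByExpr (minimum count 10, minimum total 15), which held 99.958% of counts. The model had 4 group means, and the average effect was the mean of the KO/WT contrasts in UT and LPS. The interaction was tested in the same fit. Depth was 26154533 to 36423921 counts a library, which limits genes under about 1 CPM, and the errors cover the spread between libraries.

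The labels give the replicate number as a batch and thus pair libraries. Deviations of same-numbered libraries from their group means correlated at -0.06 to 0.04 over 18 pairs. All 12 value columns were mapped to samples by name, and libraries of a group differed by more than counting noise (chi-square per degree of freedom of at least 3.77).

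Named genes were Tnf, stable differences of at least 5 CPM, the 3 called genes with the largest interaction in each direction, the genes next to the fold threshold and members of 28 lists. The members and lists were chosen with earlier results of these data known. Alternatives were DESeq2 1.42.0, RLE and upper-quartile scaling, other filters, a replicate block, an additive model, a small RNA covariate, a test against 1.5-fold and leaving out each library. The fitting steps were run on simulated data with the same dispersion for every gene. Changes were planted only in genes of at least 1 CPM and were equal in both treatments. The simulation thus does not check calls at lower counts or genes whose difference depends on LPS. Promoter windows came from RefSeq. Values of some list members are not reported here.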

Additional observations from a re-analysis of the deposited data

Results flagged for a closer look

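For the following genes the genotype difference itself changed with LPS (edgeR's quasi-likelihood test of the interaction, LPS difference minus UT difference, adjusted over 15523 genes). The number of genes with such a change fell from 2611 to 194 with the share of small structured RNAs as a covariate. That share itself differs between the groups like an interaction, so the fall cannot be read as a dependence on small RNAs. Among the stable differences and Tnf the change was small, with -0.30 for Apoe (adjusted p = 0.0437), -0.31 for C1qa (adjusted p = 0.0457), 0.30 for Fcrls (adjusted p = 0.0189) and -0.38 for Tnf (adjusted p = 0.00763).

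The decrease in KO was smaller after LPS for Vcan (interaction 1.46, adjusted p = 1.06e-08), Tnfsf8 (1.25, adjusted p = 9.64e-05), Ifi214 (1.14, adjusted p = 0.0337), Slfn4 (1.08, adjusted p = 1.67e-08), Zdhhc2 (1.12, adjusted p = 0.00251) and Gm1966 (0.81, adjusted p = 0.000597), and larger for Dio2 (-0.83, adjusted p = 0.0220). The increase was smaller after LPS for Scimp (-1.72, adjusted p = 0.00672) and Cxcl1 (-1.30, adjusted p = 2.20e-07), and larger for Adam19 (0.72, adjusted p = 0.00604) and Acta2 (0.84, adjusted p = 0.00511). Zdhhc2 and Gm1966 were named after their values were seen.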

How the results depend on the processing

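Alternatives were computed gene by gene for Tnf and 32 other genes, namely the 25 called genes of at least 5 CPM, the 5 other stable differences, S100a9 and Slfn4. The direction of each of the 32 was the same under all alternatives run, and of 762 values 716 kept their side of the threshold, 39 lost it and 7 gained it. The count of 210 called genes fell to 73 with a minimum mean of 1 CPM and to 65 in the test against 1.5-fold, and was 3809 without a fold minimum. Of the 73, 65 and 3809 genes, 32, 33 and 2201 were higher and 41, 32 and 1608 lower in KO. Of the 65 genes 44 were among the 210, as were 121 of 200 with the small RNA covariate, 135 of 154 in the additive model and 162 to 173 with 1 library left out. The 14 stable differences became 5 with the small RNA share as a covariate, 28 in the test against 1.5-fold and 1157 without a fold minimum. The 3809 genes at any fold became 2358 in the additive model, and the 2611 interactions became 194 with the small RNA covariate. The causes of the changes in the additive model and with the covariate were not tested. The covariate overlaps with the interaction between the groups, so its fit cannot tell them apart. Leaving out 1 library at a time gave 191 to 222 called genes, 12 to 18 stable differences, 3180 to 3937 genes at any fold and 1904 to 3830 interactions.

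With the replicate block 187 genes were called, 186 of them among the 210, with 15 stable differences that included the 14, 3436 genes at any fold, 2174 interactions and Tnf at -0.85. The block changed no call of the 32 genes. Among list members, decreases went from 8 to 6 for TNF receptor and NF-kappaB signalling, 9 to 8 for the cell cycle, 3 to 2 for cholesterol synthesis, 9 to 8 near Tnf and 1 to 0 for Y-linked genes, and increases from 10 to 8 for cholesterol synthesis, 7 to 6 for lipid export, 3 to 2 for structured RNAs and 6 to 5 near Tnf. The other list counts did not move with the block. The interval of the interaction in the 210 called genes had a median half-width of 1.57 log2 units, against 0.336 in all genes tested.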
